A study of Mus musculus with 8 samples.

Results

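Notch pathway genes were followed in mouse liver myofibroblasts after inhibition of O-GlcNAc transferase, namely the receptors Notch1, Notch2, Notch3 and Notch4, the ligands Jag1, Jag2 and Dll4, and the target genes Hes1, Hey1 and Heyl. These 10 genes were chosen by name, as receptors, ligands and targets of 1 pathway out of the 40840 genes in the deposited tables. The cells were primary myofibroblastic hepatic stellate cells (pMF-HSCs) from livers of male C57BL/6J mice aged 15 to 18 weeks, grown for 7 d, a culture in which stellate cells turn into collagen-secreting myofibroblasts. The 4 control cultures are labelled with the solvent DMSO (spelled DSMO for replicate 4), while the study's text calls its control cells non-treated. The 4 OGTi cultures received 50 µM OSMI-1, a small-molecule inhibitor of O-GlcNAc transferase (OGT), for 24 h. Each of the 4 control libraries was paired with the OGTi library of the same replicate number, which the study describes as independent experiments.

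Notch receptors are single-pass membrane proteins that bind Jagged or Delta-like ligands on a neighbouring cell. Binding exposes the receptor to cleavage by ADAM10 and then by gamma-secretase, and the freed intracellular domain enters the nucleus, where it joins the DNA-binding protein RBPJ and a Mastermind coactivator to switch on repressors of the HES and HEY families. In liver the pathway is best known for bile duct formation, which depends on Jag1 and Notch2, and it is also active in vascular and mural cells.

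Libraries held 30068876 to 37372420 expected counts each, and 19963 genes with a total of at least 10 counts were tested. Of these, 18.4% passed an adjusted p of 0.05 between OGTi and control, 8.13% with a higher and 10.2% with a lower level in OGTi, and in 23.5% the values of the groups did not overlap. OGTi replicate 4 stood apart in its number of detected genes (23746, against 19035 to 20293 in the other libraries). OGTi replicate 1 stood apart in transcript length, since relative to the other OGTi libraries its log2 level was 0.60 higher for the fifth of genes with the shortest transcripts and 0.48 lower for the fifth with the longest (log2 difference -0.48). The smooth muscle genes of activated stellate cells marked all libraries, with a mean of 2157 TPM for Acta2 in control and 1793 in OGTi. Ogt itself, the gene of the inhibited enzyme, had a log2 fold change of -0.16 ± 0.24 (SE, n = 4 pairs, edgeR adjusted p = 0.714), and OSMI-1 acts on the protein, so that this value does not check the labels.

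Among the 10 genes, Notch2 rose in OGTi and no other passed the test. All 10 met the count minimum, 1 was called higher, 0 were called lower and 9 were not called by edgeR's quasi-likelihood test, where the background above gives 18.4% called over all genes. At an unadjusted p under 0.05 stood 1 gene with a higher level (Notch2) and 2 with a lower one (Notch4 and Heyl). Over all 19963 genes tested, 2854 were higher and 3494 lower at that limit. DESeq2 called Heyl as lower. The median log2 fold change of the 10 genes was -0.15, beside 0.01 over all genes tested. Levels of 1 gene across libraries are given as scaled counts, for which each count was brought to a common library size with TMM factors. In these bulk cultures a smaller number of cells of 1 type and less RNA per cell cannot be told apart.

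**Figure D1:**
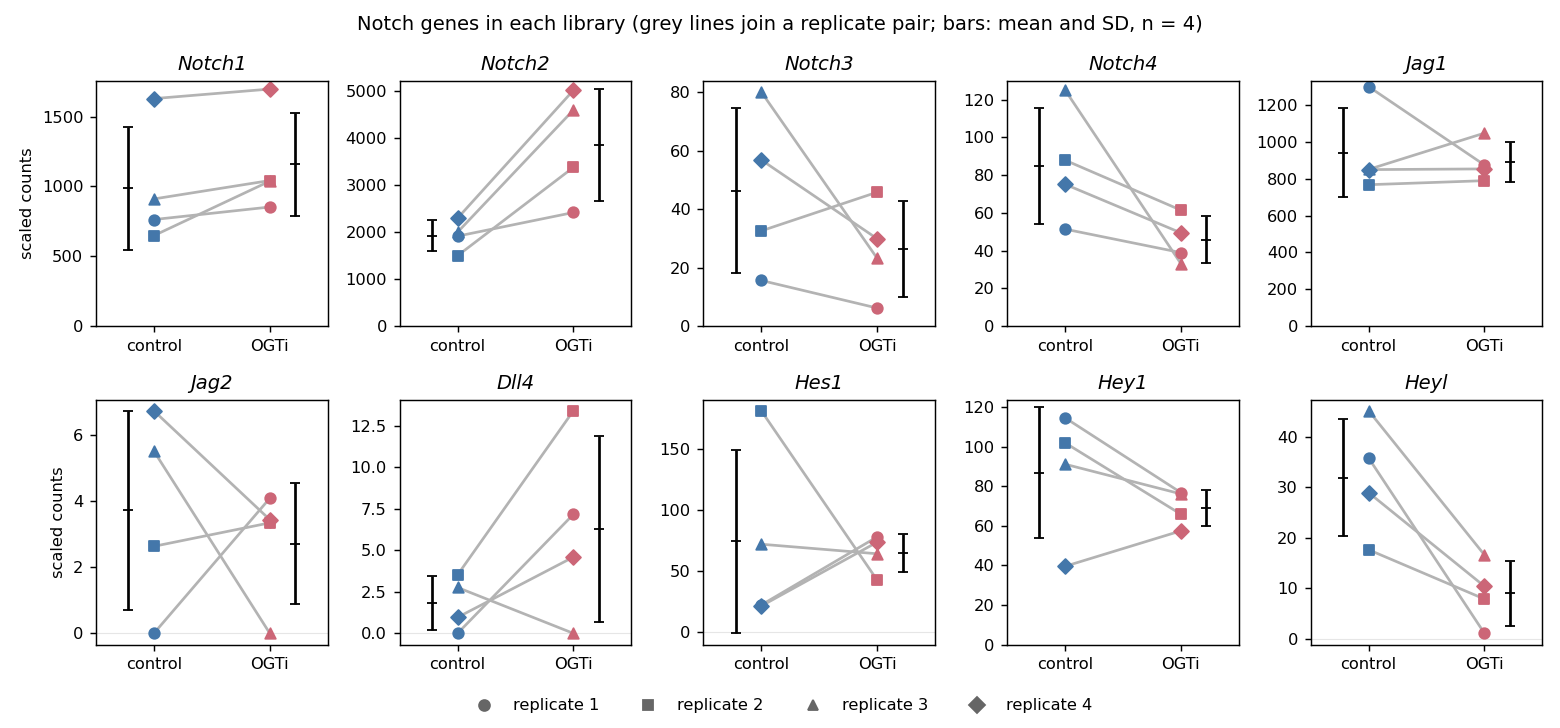
Scaled counts (y axis, a separate linear scale for each gene) of the 10 Notch genes in control and OGTi libraries, with grey lines joining the libraries of 1 replicate number and black bars for the mean and SD of 4 libraries. The Notch2 values of control, 1495 to 2292, lie below those of OGTi, 2414 to 5014, and the Heyl values of control, 17.6 to 45.1, lie above those of OGTi, 1.02 to 16.6.

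The genes spanned a wide range of levels. On the TPM scale, which divides by transcript length and so lets genes be compared, Notch2 was the most abundant in control at 9.13 ± 1.64 (SD, n = 4), followed by Jag1 at 6.51 ± 1.56, Notch1 at 5.21 ± 2.35, Hes1 at 3.19 ± 3.24 and Hey1 at 2.31 ± 0.87 TPM. The ranges of neighbours in this upper part of the order overlapped, so that their order is not fixed by 4 libraries. Next came Notch4 at 0.68 ± 0.26 TPM, whose highest library (1.03 TPM) came close to the lowest of Hey1 (1.04 TPM) and exceeded the lowest of Hes1 (0.91 TPM), and which overlapped with Heyl at 0.36 ± 0.13 and Notch3 at 0.29 ± 0.18 TPM. A gap that no control library crossed separated these from Jag2 and Dll4, at means of 0.04 and 0.025 TPM. In OGTi, Notch2 was first at 14.8 ± 5.06 TPM and its range lay clear of that of Notch1 at 4.93 ± 1.79 TPM, while Jag1 followed at 4.90 ± 0.57 TPM and overlapped with Notch1. Summed over the 10 genes, the level was 26.5 to 28.9 TPM in control and 19.2 to 36.1 TPM in OGTi. Notch2 stood above 70.0% of the genes tested by its mean TPM, and Jag2 above 6.39%.

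**Figure D2:**
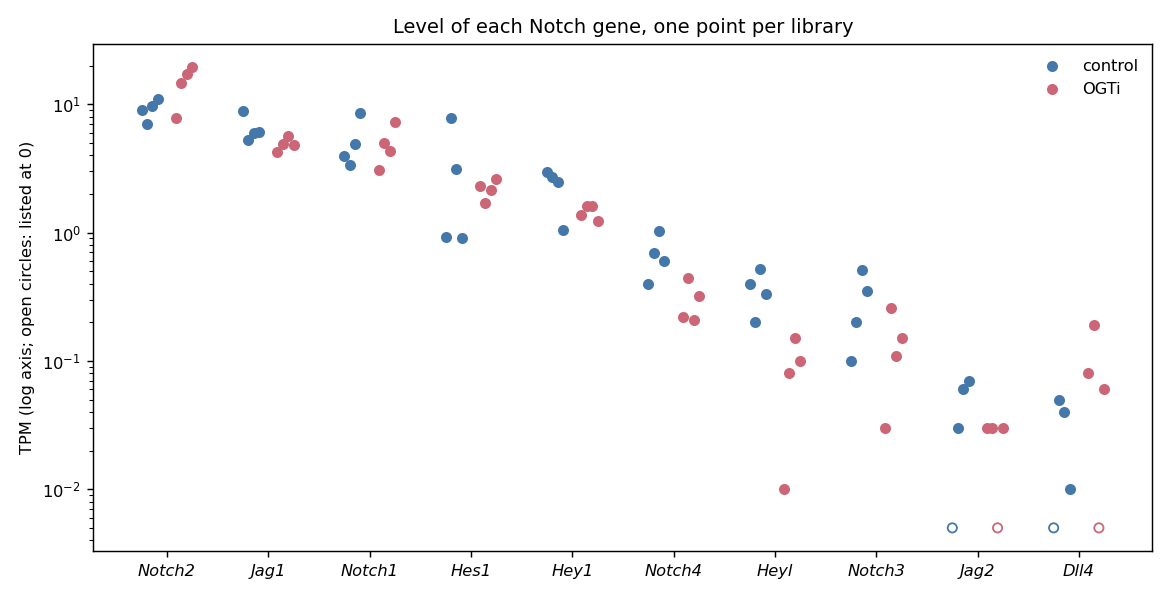
TPM of each Notch gene on a log axis, 1 point per library in replicate order from left to right within each group, with genes sorted by their control mean and open circles for libraries listed at 0. The 10 genes span from 9.13 TPM (Notch2) to 0.025 TPM (Dll4) in the control mean, with Jag2 and Dll4 each listed at 0 in 1 control and 1 OGTi library.

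Notch2, a receptor gene at chromosome 3 from 97920800 to 98057677 on the plus strand (GRCm39), rose in every pair. Its scaled counts were 1911, 1495, 1995 and 2292 in control replicates 1 to 4 and 2414, 3375, 4594 and 5014 in OGTi replicates 1 to 4. Every OGTi library lay above every control library, and the smallest step was in pair 1. The fitted log2 fold change was 0.96 ± 0.22 (SE; 95% confidence interval 0.47 to 1.46), a 1.95-fold higher level with an edgeR adjusted p of 0.0146, beside 8.13% of all genes called higher. The log2 ratios within pairs, taken on CPM (counts relative to the TMM-adjusted library size) plus 0.5, were 0.33, 1.17, 1.20 and 1.12. The call was lost without replicate 2, 3 or 4, with edgeR adjusted p of 0.0594, 0.0896 and 0.0628. The log2 fold changes in these fits were 0.92, 0.88 and 0.92, near the 0.96 of all pairs. Over all genes, calls fell from 3666 to 3078, 1905 and 1956 in the same fits. Without replicate 1, the pair with the length trend, the log2 fold change of Notch2 was 1.17 (adjusted p = 0.00624).

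The scale mattered for Notch2 in OGTi replicate 1. In TPM, the levels were 8.96, 6.99, 9.67 and 10.9 in control and 7.81, 14.7, 17.2 and 19.5 in OGTi, so that OGTi replicate 1 fell within the control range and the groups overlapped. A limma fit on log2(TPM + 1) gave a log2 difference of 0.59 with an adjusted p of 0.127 and did not call the gene. The Notch2 transcript has 10506 bases in the tables of all 8 libraries, and with the length trend of each library removed the log2 fold change in scaled counts was 1.12 and was called. The part of transcript length in the difference between the scales was not tested.

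The start of Notch2 is shown as sequence because it is the gene that rose, together with that of Hey2, a target of the wider pathway that rose with it. Both stretches lie before the gene start of the GENCODE annotation, come from the RefSeq promoter table (build GRCm38.p6) and were placed on GRCm39 by an exact match found once on the chromosome, Notch2 at chr3:97920604-97920799 on the plus strand and Hey2 at chr10:30718829-30719029 on the minus strand. Capitals mark the core of the RBPJ motif, GTGGGAA, or its reverse complement TTCCCAC.
Notch2: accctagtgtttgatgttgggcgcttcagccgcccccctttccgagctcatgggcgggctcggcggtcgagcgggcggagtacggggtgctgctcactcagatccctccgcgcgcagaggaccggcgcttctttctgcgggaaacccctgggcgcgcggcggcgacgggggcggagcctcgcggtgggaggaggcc
Hey2: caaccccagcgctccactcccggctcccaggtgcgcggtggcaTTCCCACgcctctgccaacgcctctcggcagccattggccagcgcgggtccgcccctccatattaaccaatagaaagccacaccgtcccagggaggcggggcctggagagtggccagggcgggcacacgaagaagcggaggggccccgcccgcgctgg
The Hey2 stretch holds 1 match, which ends 151 bases before the gene start, and the Notch2 stretch holds none. Across the RefSeq table, 1779 of 32851 windows of 250 bases before a start, or 5.42%, held the motif on either strand. Of the 10 Notch genes, 7 (the receptors and the ligands) had an entry, and 0 of those 7 windows held it. A match of these letters is a description of the sequence, not a site of binding.

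Notch1, the receptor nearest to Notch2 in level, lies at chromosome 2 from 26347915 to 26406675 on the minus strand. Control libraries had scaled counts of 762, 647, 910 and 1628, and OGTi libraries had 852, 1037, 1042 and 1697. Replicate 4 was the highest library of both groups, and the groups overlapped over most of their range. Each of the 4 pairs was higher in OGTi, yet the log2 fold change of 0.27 ± 0.22 did not pass the test (adjusted p = 0.432 by edgeR; 95% confidence interval -0.21 to 0.75), and that interval overlaps the interval of Notch2. On the TPM scale, with either pseudocount, the difference was -0.05.

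Notch2 made up 66.7, 62.2, 60.0 and 53.3% of the summed TPM of the 4 receptors in control replicates 1 to 4 and 70.2, 72.0, 78.7 and 71.5% in OGTi replicates 1 to 4, so that each OGTi library lay above each control library. The ratio of Notch2 to Notch1 TPM was 1.27 to 2.26 in control and 2.55 to 3.97 in OGTi. Both are given as a description, without a test, since they restate the Notch2 values.

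**Figure D3:**
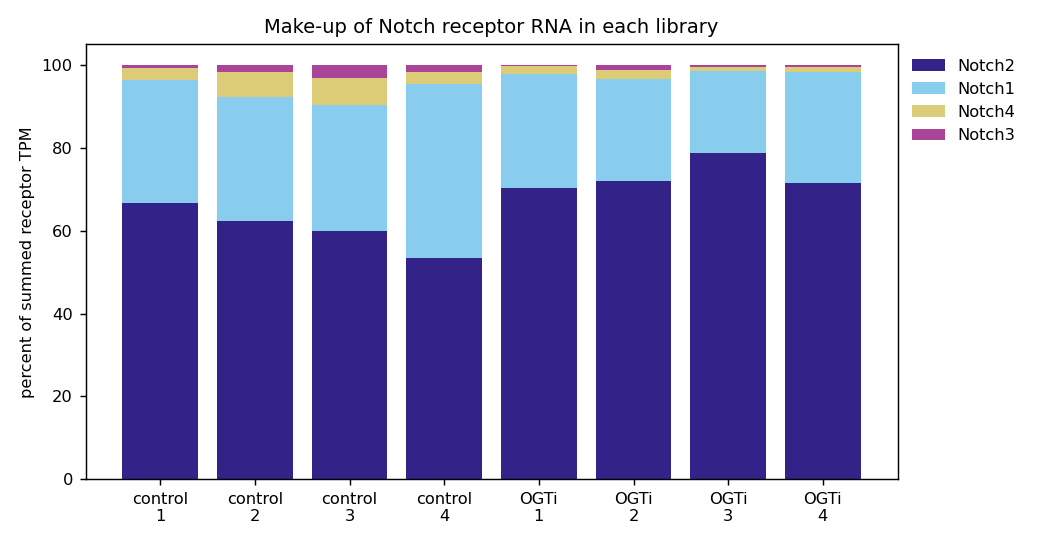
Percent of the summed receptor TPM (y axis) held by each of the 4 Notch receptors in each of the 8 libraries, with 1 stacked bar per library. The Notch2 share is 53.3 to 66.7% in control and 70.2 to 78.7% in OGTi, and Notch1 holds most of the rest in every library.

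Notch4, a receptor known from vascular endothelium, lies at chromosome 17 from 34783220 to 34807477 on the plus strand. Its scaled counts were 51.4, 87.9, 125 and 75.2 in control and 38.9, 61.4, 33.1 and 49.4 in OGTi. Each pair was lower in OGTi, although OGTi replicate 2 exceeded control replicate 1, so that the groups overlapped. Notch4 had a log2 fold change of -0.85 ± 0.37 (95% confidence interval -1.66 to -0.04) with an unadjusted p of 0.0422 and an edgeR adjusted p of 0.141. Without replicate 3 the log2 fold change was -0.51 (adjusted p = 0.504). Of 10 endothelial marker genes, 9 were tested and 3 fell, beside 10.2% of all genes called lower, namely Tek (log2 fold change -3.36, adjusted p = 0.00235), Lyve1 (-3.17, adjusted p = 0.034) and Ptprb (-3.09, adjusted p = 0.0182, all by edgeR), and the summed level of the list was 1.67 to 3.46 TPM in control and 0.38 to 1.07 TPM in OGTi. Pecam1, Cdh5 and Stab2 had log2 fold changes of 1.33, 0.18 and 0.18 and were not called. The defining endothelial genes Cdh5 and Erg were near 0, with 12 and 2 counts over all 8 libraries, and the part of these markers in the Notch4 values was not tested.

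Notch3, a receptor of mural and smooth muscle cells, lies at chromosome 17 from 32339794 to 32385893 on the minus strand. Scaled counts of Notch3 were 15.6, 32.5, 80.1 and 56.8 in control and 6.14, 45.8, 23.2 and 29.9 in OGTi. Pair 2 was higher in OGTi and the other 3 pairs were lower, and the groups overlapped. For Notch3 the log2 fold change was -0.86 ± 0.48 (95% confidence interval -1.92 to 0.20, edgeR adjusted p = 0.247), close in size to that of Notch4 but with a wider error. It became -1.32 without replicate 2 and -0.52 without replicate 3, and in neither was it called. Of 8 smooth muscle and pericyte markers, 7 were tested and 0 were called by edgeR, beside 18.4% of all genes. At an unadjusted p under 0.05 there were 3 lower, beside 3494 of all 19963 genes tested. The summed level of these markers was 125 to 242 TPM in control and 47.0 to 180 TPM in OGTi. The pericyte marker Cspg4 was near 0 with 2 counts in all, and the part of these markers in the Notch3 values was not tested.

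Jag1, the main ligand gene of these cells, lies at chromosome 2 from 136923373 to 136958693 on the minus strand. Its scaled counts were 1302, 769, 852 and 851 in control and 876, 791, 1049 and 855 in OGTi. Control replicate 1 stood above the other control libraries, and the rest of the control libraries, at 769 to 852, overlapped with OGTi, where replicate 3 was the highest. The log2 fold change was -0.06 ± 0.23 with a 95% confidence interval of -0.56 to 0.45 (edgeR adjusted p = 0.901), which leaves out a change of the size fitted for Notch2.

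Jag2 and Dll4 were at the limit of counting. Jag2, a second Jagged ligand at chromosome 12 from 112871421 to 112893437 on the minus strand, had 0, 3, 6 and 7 expected counts in control and 4, 3, 0 and 3 in OGTi. Dll4, the Delta-like ligand of sprouting vessels at chromosome 2 from 119156170 to 119166443 on the plus strand, had 0, 4, 3 and 1 expected counts in control and 7, 12, 0 and 4 in OGTi. In both genes a library without any count occurred in each group, and a count of 0 still allows a level of up to 0.0803 to 0.0998 CPM (3 counts of the library, counting error only). The log2 fold changes were -0.27 ± 1.55 for Jag2 (edgeR adjusted p = 0.931) and 1.59 ± 1.46 for Dll4 (adjusted p = 0.504), so that a difference was not detectable at this depth. The endothelial marker values given beside Notch4 apply to Dll4 as well, and their part was not tested.

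Heyl, a HEY-family repressor gene and a transcriptional target of the pathway, lies at chromosome 4 from 123127349 to 123143682 on the plus strand. Its scaled counts were 35.8, 17.6, 45.1 and 28.9 in control and 1.02, 7.82, 16.6 and 10.3 in OGTi, from 39, 20, 49 and 30 counts and from 1, 7, 15 and 9 counts. Every OGTi library lay below every control library, although the highest OGTi value came close to the lowest control value. The log2 fold change was -1.96 ± 0.65 (95% confidence interval -3.41 to -0.51), a 3.89-fold lower fitted level in 4 of 4 pairs, and its adjusted p of 0.0634 by edgeR just missed the threshold. The gene was called lower in 5 of the 13 alternatives, for example by DESeq2 (log2 fold change -1.97, adjusted p = 0.033) and without the count minimum (-1.97, adjusted p = 0.0169), and its direction held in 13 of 13. It was not called without any 1 of the 4 replicates (adjusted p 0.0943 to 0.142), and without replicate 1 the log2 fold change was -1.36. The smooth muscle and pericyte markers given beside Notch3 apply here too, and their part was not tested.

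Hes1, the target gene most often read as Notch output, lies at chromosome 16 from 29882134 to 29886643 on the plus strand. Scaled counts of Hes1 were 22.0, 181, 71.8 and 21.2 in control and 77.8, 42.4, 64.0 and 73.5 in OGTi. The control libraries spread widely and enclosed all OGTi libraries, with 2 pairs higher and 2 lower in OGTi. For Hes1 the log2 fold change was 0.34 ± 0.64 (95% confidence interval -1.07 to 1.76, edgeR adjusted p = 0.767), an interval too wide to show a change in either direction. It was 1.16 without replicate 2, -0.20 without replicate 1 and -0.17 without replicate 4, and in none of these was it called.

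Hey1, the related repressor gene at chromosome 3 from 8726956 to 8732385 on the minus strand, had scaled counts of 115, 102, 91.2 and 39.5 in control and 76.8, 65.9, 76.1 and 57.4 in OGTi. Replicate 4 was the lowest library of both groups and the only pair with a higher level in OGTi. The log2 fold change was -0.25 ± 0.33 (95% confidence interval -0.97 to 0.48, edgeR adjusted p = 0.661).

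By Pearson correlation of log2 CPM over the 8 libraries, the 3 genes nearest to Notch2 among 12524 with a mean of at least 1 CPM were Nsun3 (r = 0.984), Zfand2a (0.978) and LOC118567918 (0.977). All 3 were also higher in OGTi, with log2 fold changes of 1.20, 1.45 and 1.13. The points share the group difference and the library depth, and the values describe likeness of pattern only.

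Around these genes, a list of 52 pathway genes covered the roles from ligand to target. Of 49 tested, 4 rose (Notch2, Psen2, Numbl and Hey2), 3 fell (Eogt, Dtx3 and Maml2) and 42 were not called, with a median log2 fold change of -0.24 beside 0.01 over all genes. The background is 18.4% called in either direction, and without the 10 Notch genes 3 rose and 3 fell among 39 tested. Dtx1 and Hes5, with 3 and 1 counts in all, and Nrarp, listed at 0 counts in all 8 libraries, did not reach the count minimum. The list was drawn up with results of these data known and its counts are a description.

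**Figure D4:**
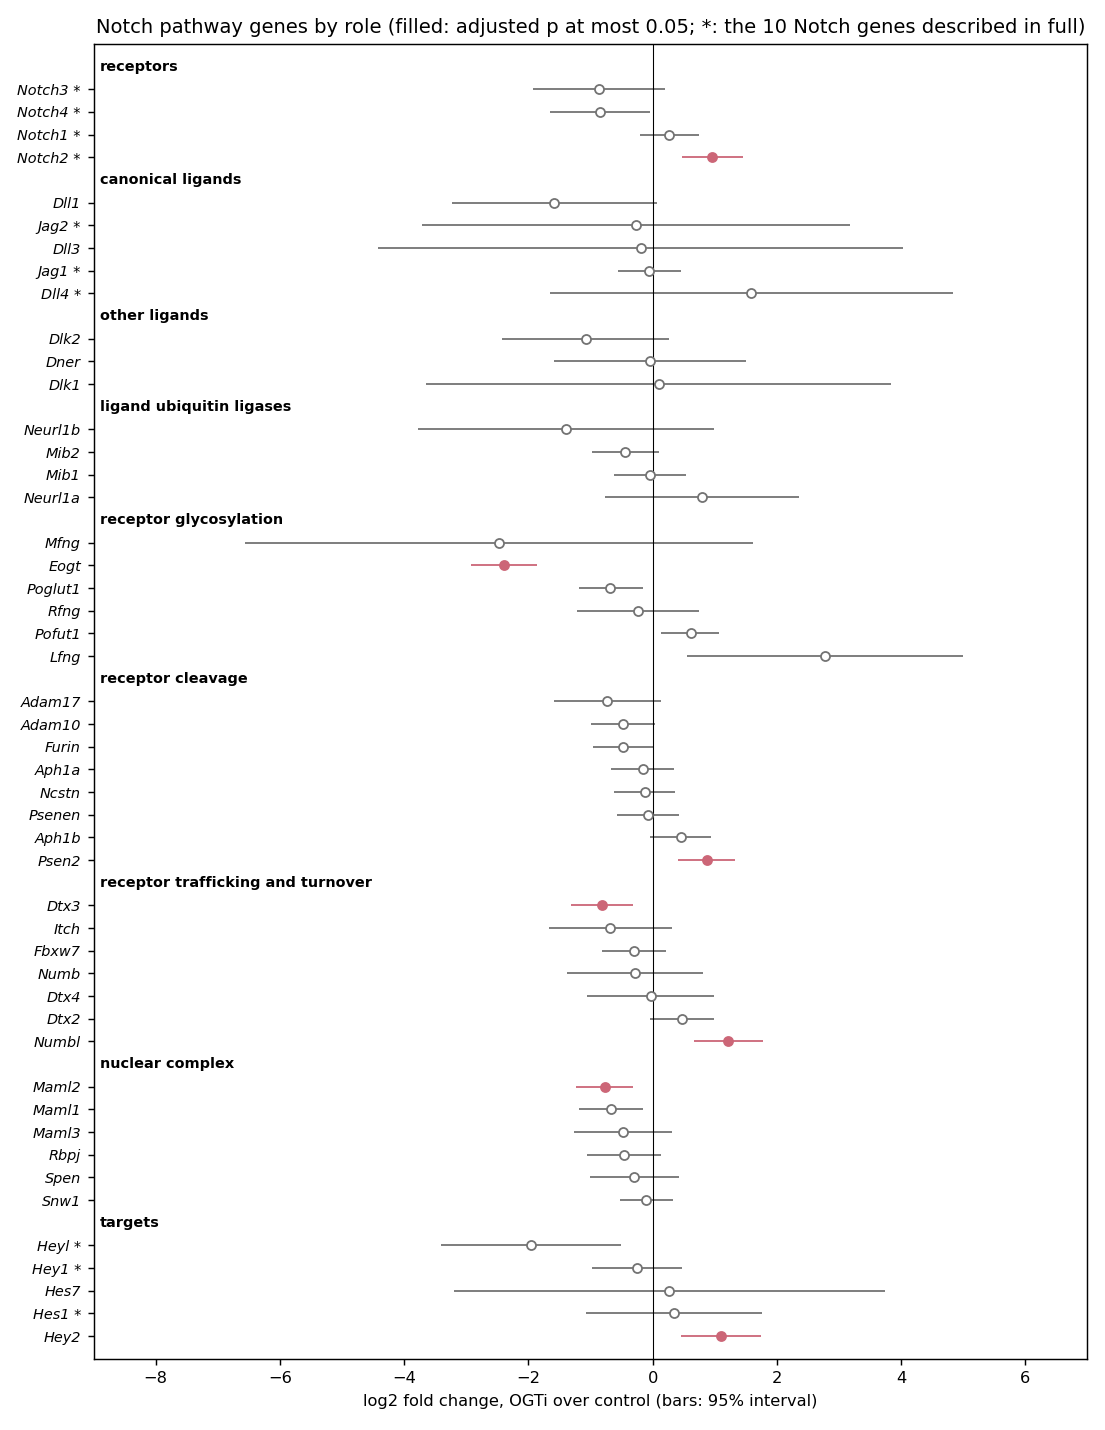
Log2 fold change of OGTi over control (x axis) with its 95% confidence interval for tested pathway genes, grouped by role and sorted within it, with filled points for an adjusted p of at most 0.05. The 7 filled points are spread over 6 of the roles, from Eogt at -2.39 to Numbl at 1.22.

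Receptor glycosylation held the gene with the lowest adjusted p of the list. Eogt encodes the enzyme of the endoplasmic reticulum that attaches O-GlcNAc to the EGF repeats of Notch and other extracellular proteins, a different enzyme from OGT, which acts in the cytoplasm and nucleus. Scaled counts of Eogt were 1121, 1020, 1224 and 1208 in control and 163, 254, 209 and 256 in OGTi. Each group was tight and the distance between them was many times the spread within either. Eogt had a log2 fold change of -2.39 ± 0.24, a 5.26-fold lower level (edgeR adjusted p = 0.000317), and it was called in 13 of 13 alternatives.

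The other glycosylation genes did not pass edgeR's test as fitted here. DESeq2 called Pofut1 (log2 fold change 0.66, adjusted p = 0.00725), Poglut1 (-0.63, adjusted p = 0.0414) and Lfng (2.95, adjusted p = 0.0305). With other settings edgeR called Pofut1 (adjusted p 0.0132 to 0.0386 with upper-quartile scaling, a filter by expression or the length trend removed) and Poglut1 (0.0315 with library totals, 0.0475 without replicate 2), and limma called Poglut1 on both TPM scales (0.0344 and 0.03). Pofut1, which adds O-fucose to the same repeats, had a log2 fold change of 0.61 (adjusted p = 0.071), and Poglut1, which adds O-glucose, had -0.68 (adjusted p = 0.0706, both by edgeR). Poglut1 was the most abundant of the 6, at 43.2 TPM in control and 22.6 TPM in OGTi. Of the Fringe genes, whose enzymes extend O-fucose, Rfng was at 8.72, 38.2, 14.7 and 1.95 TPM in control and 8.12, 12.0, 5.62 and 4.03 TPM in OGTi, with a log2 fold change of -0.24 (edgeR adjusted p = 0.768) that became 0.26 without replicate 2 and 0.07 without replicate 3, while Lfng rested on 9 counts in control and 56 in OGTi (log2 fold change 2.77, adjusted p = 0.0842).

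Of 9 receptor cleavage genes, Psen2 rose and 0 fell by edgeR's test, beside 8.13 and 10.2% of all genes. At an unadjusted p under 0.05, 2 were higher and 0 lower, beside 2854 and 3494 of all 19963 genes tested. DESeq2 called 0 lower. Psen2, a catalytic subunit of gamma-secretase, had scaled counts of 2229, 2353, 2454 and 1981 in control and 4876, 4943, 3850 and 3036 in OGTi. The groups did not overlap, and the log2 fold change was 0.87 ± 0.20 (edgeR adjusted p = 0.0153), a call lost without replicate 2 and without replicate 3 (0.0561 and 0.0562), with library totals (0.0503) and on the TPM scales (0.061 and 0.0632). Other gamma-secretase subunits were abundant and near the all-gene median, among them Psenen at 304 TPM in control (log2 fold change -0.07) and Ncstn at 241 TPM (-0.13). The sheddase Adam10 had a log2 fold change of -0.48 (edgeR adjusted p = 0.193), which became -0.23 without replicate 1.

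Of 7 tested genes of receptor trafficking and turnover, 1 rose and 1 fell, beside 8.13 and 10.2% of all genes. Numbl encodes a Numb-like adaptor, a family known for opposing Notch signalling, and its scaled counts went from 382, 491, 461 and 436 in control to 1047, 764, 967 and 1454 in OGTi. Each OGTi library lay above each control library, the log2 fold change was 1.22 ± 0.25 (edgeR adjusted p = 0.00785), and the call was kept in 13 of 13 alternatives. Numb itself had 2311, 1550, 2775 and 2856 scaled counts in control and 339, 2276, 3384 and 3625 in OGTi. Its log2 fold change of -0.28 (edgeR adjusted p = 0.749) turned to 0.40 (adjusted p = 0.162) without replicate 1, whose OGTi library was far below the others. Dtx3, a Deltex-family ubiquitin ligase gene, fell from 470 ± 60.7 to 272 ± 63.7 scaled counts (SD, n = 4; log2 fold change -0.81 ± 0.22, edgeR adjusted p = 0.0319), and this call was lost in the fit without the replicate block (adjusted p = 0.0529) and without any 1 of the 4 replicates (0.0562 to 0.171), and with upper-quartile scaling (0.0639).

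All 6 genes of the nuclear complex had a log2 fold change below 0, as had 9940 of the 19963 genes tested, and 1 of the 6 passed the test, and their median was -0.47 beside 0.01 over all genes tested. With the length trend removed they ran from -0.53 to -0.06, beside an all-gene median of 0.09, whereas Snw1 stood at 0.02 with upper-quartile scaling and Spen at 0 without replicate 3. Maml2, a Mastermind coactivator, had scaled counts of 1979, 1257, 2030 and 1981 in control and 1086, 912, 1121 and 1052 in OGTi. Control replicate 2 was far below the other control libraries and still above every OGTi library. The log2 fold change was -0.77 ± 0.21 (edgeR adjusted p = 0.0273), beside 10.2% of all genes called lower, and the call was lost without replicate 3 (0.145), without replicate 4 (0.101), with upper-quartile scaling (0.0591) and with the length trend removed (-0.53, adjusted p = 0.0576). Maml1, a related coactivator, had -0.67 (adjusted p = 0.0747 by edgeR) and was called lower by DESeq2 (0.045) and with library totals (0.035). Rbpj, the DNA-binding partner of the cleaved receptor, was at 15.9 TPM in control and 9.67 TPM in OGTi. Its log2 fold change of -0.46 (edgeR adjusted p = 0.27) became -0.15 without replicate 1. Snw1, a cofactor shared with splicing, was at 110 TPM in control (-0.11, adjusted p = 0.759).

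Among 5 tested target genes, Hey2 rose and 0 fell by edgeR, beside 8.13 and 10.2% of all genes. Heyl was the 1 gene lower at an unadjusted p under 0.05, beside 3494 of all 19963 genes tested. Hey2, the third HEY-family repressor gene, had scaled counts of 65.1, 49.2, 66.3 and 73.2 in control and 140, 74.8, 153 and 203 in OGTi. OGTi replicate 2 lay just above the highest control library and the other OGTi libraries well above it. Hey2 had a log2 fold change of 1.10 ± 0.29 (edgeR adjusted p = 0.0259), with the call lost without replicate 1, 3 or 4 (0.0582, 0.119 and 0.11), with library totals (0.0517) and on the TPM scales (0.0922 and 0.105). In TPM, Hey2 was at 1.35 ± 0.23 in control and 2.40 ± 0.88 in OGTi, beside 2.31 and 1.45 for Hey1 and 0.36 and 0.085 for Heyl, so that the HEY gene with the highest mean was Hey1 in control and Hey2 in OGTi. That order was not tested.

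The ligands and their ubiquitin ligases gave no call by edgeR. Of 5 canonical ligands, 3 other ligands and 4 ligand ubiquitin ligases, 0 passed edgeR's test, beside 18.4% of all genes. Of these genes 0 had an unadjusted p under 0.05, beside 6348 of all 19963 genes tested. DESeq2 called none of them, while limma on log2(TPM + 1) called Dlk2 lower (-0.37, adjusted p = 0.0342). Dll1 was the ligand with the lowest p, at 0.43, 0.15, 0.44 and 1.55 TPM in control and 0.01, 0.16, 0.29 and 0.18 TPM in OGTi. Its log2 fold change of -1.58 (edgeR adjusted p = 0.174) became -1.06 without replicate 4 and -0.96 without replicate 1. Mib1, which is needed in the ligand-sending cell, was at 5.03 TPM in control with a log2 fold change of -0.04 and a 95% confidence interval of -0.62 to 0.54, and Mib2 was at 6.11 TPM with -0.44 (adjusted p = 0.242).

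Other cell types were checked through their markers. Per the study's methods, the stellate cells had been sorted by retinol autofluorescence after a density gradient and before culture, a step that removes most other liver cells. Of 10 stellate and myofibroblast markers, 2 fell (Pdgfrb, log2 fold change -1.68, and Lrat, -1.78), beside 10.2% of all genes called lower. At an unadjusted p under 0.05 there were 5 lower and 1 higher, beside 3494 lower and 2854 higher of all 19963 genes tested. Tagln (0.53, adjusted p = 0.082 by edgeR) was higher in 4 of 4 pairs and not called. Col1a1 (-0.85, adjusted p = 0.0761) and Col3a1 (-0.72, adjusted p = 0.0517, both by edgeR) were lower in 4 of 4 pairs and not called. Most of the summed level came from Acta2 and Tagln, and it was 3612 to 6512 TPM in control and 2998 to 7041 TPM in OGTi. Over all genes 8.13% rose and 10.2% fell, which is also the background of the lists that follow. Of 7 cholangiocyte markers, 6 were tested, Sox9 rose (log2 fold change 3.03, adjusted p = 0.00858) and Krt19 fell (-0.66, adjusted p = 0.0462, both by edgeR), with sums of 307 to 655 TPM in control and 128 to 563 TPM in OGTi. The defining cholangiocyte marker Cftr had 2 counts over all libraries. Of 7 tested macrophage markers Cd68 rose (log2 fold change 1.5, adjusted p = 0.00154 by edgeR). Of the 7, 4 had a log2 fold change below 0, namely Vsig4 (-1.28), Clec4f (-1.23), Ptprc (-0.91) and Csf1r (-0.03). Adgre1 (0.23) and Cd5l (1.4) lay above 0, and none of these 6 was called. The sums were 19.2 to 40.3 TPM in control and 33.6 to 71.6 TPM in OGTi, with Cd68 alone at means of 22.8 and 50.6 TPM. Of 4 tested hepatocyte markers Cyp2e1 rose (3.98, adjusted p = 0.00591 by edgeR), from 7 counts in control to 107 in OGTi, with sums of 0.06 to 0.59 and 0.59 to 1.70 TPM, and Hnf4a was listed at 0 counts. Of 4 tested mesothelial and portal fibroblast markers 0 were called by edgeR and 0 had an unadjusted p under 0.05, with sums of 1.07 to 1.75 and 0.60 to 1.71 TPM. The part of these markers in the Notch2 values was not tested.

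The direction of the Notch2 difference held in 13 of 13 processing alternatives, with log2 fold changes from 0.59 to 1.17, and it was called in 8 of them. Heyl, Eogt, Numbl, Psen2, Hey2, Dtx3 and Maml2 also kept their sign throughout, whereas Notch1, Jag1, Jag2 and Hes1 crossed 0 in some alternatives.

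**Figure D5:**
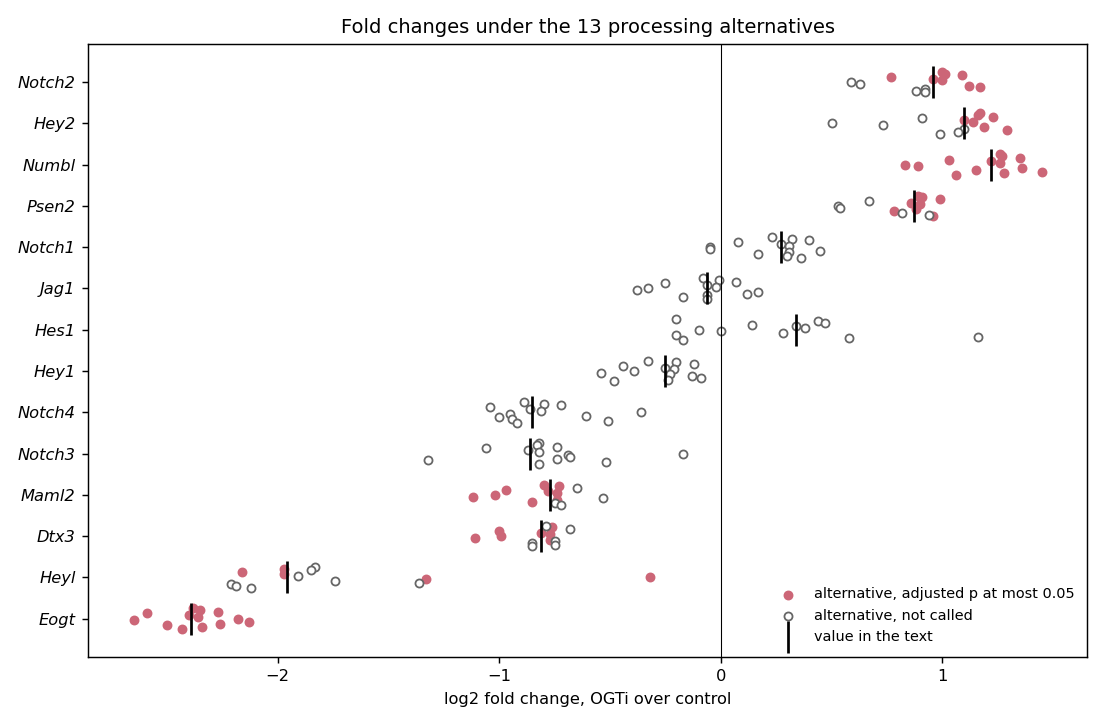
Log2 fold change of OGTi over control (x axis) of 14 pathway genes under each of 13 processing alternatives, with filled points where the adjusted p was at most 0.05, open points otherwise, and a black tick for the value given in the text. Notch2 runs from 0.59 to 1.17 with 8 filled points, and Eogt and Numbl are filled in 13 of 13.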

How the data were processed

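RNA-seq of 4 control and 4 OGTi pMF-HSC cultures was analysed. The authors aligned reads to mm39 with Bowtie2 2.3.5.1 and counted with RSEM 1.3.1, and the deposited expected counts and TPM per gene were used. The deposited table of the authors' own comparison (fold changes and p-values) was not used. Expected counts were rounded to whole numbers (0.251 to 0.978% of detected genes were fractional), genes with a total of at least 10 were kept, and edgeR 4.0.16 (R 4.3.3, TMM, quasi-likelihood test) was run with a block for the replicate number, since the study's own test was paired. Adjusted p is Benjamini-Hochberg over 19963 genes, called at 0.05. Same-numbered libraries deviated together (r = 0.216, 0.301, 0.217 and 0.437, against -0.493 to 0.29 for pairs of other numbers). The test was checked on simulated counts. The 10 Notch genes, the pathway and marker lists and the tests were chosen with earlier results of these data known. All 10 genes are named with every value, of the pathway list every called gene and the most abundant others, and of the markers the most abundant and those near 0. Gene positions are from GENCODE vM39 (GRCm39). Alternatives used DESeq2 1.42.0, limma 3.58.1, other scalings and filters, removal of a length trend, and each replicate left out. The treatment label of control replicate 4 reads DSMO, and its group was taken from its title. Values of some listed genes are not reported here.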

Additional observations from a re-analysis of the deposited data

Results flagged for a closer look

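Jag1 in control replicate 1 was far from its group, with a scaled count of 1302 against 768.6 to 851.8 in the other control libraries. Maml2 in control replicate 2 was far below its group, with 1257 against 1979 to 2029. Both gaps exceed Dixon's 95% critical value for 4 libraries. The check covered 34 groups of values, of which chance alone puts about 1 in 20, or 1.7, beyond that value.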

How the results depend on the processing

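Leaving out each replicate in turn gave 1905 to 3124 called genes over all genes (843 to 1433 higher, 1062 to 1744 lower), 0 to 1 of the 10 Notch genes (0 to 1 higher) and 2 to 5 of the pathway list (1 to 3 higher, 1 to 3 lower). Without replicate 3, Eogt and Numbl alone of the pathway list were called. In the fit without the replicate block, 2991 genes were called (1459 higher, 1532 lower), with Notch2 the 1 Notch gene and 6 of the pathway list. The Notch genes called were 2 with DESeq2, with library totals and with no count minimum, each adding Heyl as the 1 lower gene. In limma on log2(TPM + 1) and on log2(TPM + 0.1), 0 were higher and 1 (Heyl) was lower, Notch2 giving 0.59 (adjusted p = 0.127) and 0.63 (0.123), and 3456 and 3473 genes were called lower over all genes. The pathway list gave 12 calls with DESeq2 (6 lower), 2 higher and 6 lower with library totals, 1 higher and 6 lower with log2(TPM + 1), 1 higher and 5 lower with log2(TPM + 0.1), 1 lower with upper-quartile scaling, and 7 higher with the length trend removed. The share of higher calls over all genes was 44.3% as reported, 30.1% with library totals and 25.7 and 26.2% on the TPM scales, where the all-gene median was -0.19, -0.10 and -0.23 (log2) in place of 0.01. The causes were not tested. No alternative turned the sign of the 7 called pathway genes. Depth limits Jag2 and Dll4, with 26 and 31 counts in all.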
